A study of Drosophila ananassae and Drosophila erecta and Drosophila sechellia with 40 samples.

Results

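The cytoplasmic ribosomal protein genes were followed through 4 stages of antennal development in 6 Drosophila species. They were taken by name, as every entry that begins with RpL (large subunit) or RpS (small subunit). This gave 96 rows, and counting joined names such as RpL34a/RpL34b once left 88 genes of 26741 in the series, 53 of the large and 35 of the small subunit. Of the 88 genes, 67 had a mean above 50 in all 6 species at all 4 stages (39 large, 28 small), and they are called the core genes here. Another 19 genes were listed at 0 in at least 1 species and stage. Of all genes in the tables, 4647 passed the same minimum as the core genes.

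RNA was sequenced from wild-type D. sechellia, D. simulans, D. erecta, D. ananassae and D. virilis, reared at 20 °C under a 16:8 light cycle, with 2 libraries for each species and stage and 40 in all. The stages were antennal discs of the third larval instar (3L), antennal discs 8 hours after puparium formation (p8, 10 hours in D. virilis), pupal antennae at 40 hours (p40, 48 hours in D. virilis) and adult antennae (AA), and a library was a pool of 70 individuals, or of 300 for adults. Levels are mean normalized counts of a species and stage, not divided by transcript length, so they are compared between species and never between genes. Reads were mapped to each species' own transcriptome, and the part of its annotation in a difference between species was not tested. The 4 columns of D. melanogaster belong to none of the 40 libraries and are given as the authors' means, with no spread. By the methods of the study the D. melanogaster strain was w1118 and its pools were of the same size. By the same methods, white pupae were moved to an incubator warmer than the rearing temperature until dissection. Adults of both sexes were taken at least a week after eclosion.

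A ribosome is built from ribosomal RNA and a fixed set of proteins, each present in about equal number in the small or the large subunit, and cells make more of it while they grow. In D. melanogaster the loss of a single copy of many of these genes gives the Minute phenotype, with slow development and short thin bristles. The transcripts of ribosomal protein genes are among the most abundant of a growing tissue, as is known for the imaginal discs that form the adult appendages.

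Each column of the tables is the mean of 2 libraries, and the single libraries were recovered where only 1 pair of whole read counts could give the listed mean. Every value of the genes described here was resolved at p8 and p40, where the libraries held from 11738398 to 26658372 reads. At 3L and in AA high values stayed unresolved, so a test in all 5 species could be made for 4 of the 88 genes at 3L and for 30 in AA, mostly those with lower levels. The library with the larger size factor is called the first here and the other the second, which is a name and not a replicate number. Antennal samples held the markers of their tissue at all 4 stages, since the 6 antennal identity genes Dll, ss, hth, dac, ato and amos summed to 9232 to 31095. The neuron genes elav and Syt1, used by all neurons, and the olfactory receptor genes Orco and Or47b together summed to 299.6 to 938.6 at 3L and to 34279 to 58674 in AA. Transcripts of other tissues were present too. The fat body genes Lsp2, Yp1, Yp2 and Fbp1 summed at 3L to 74436 in D. ananassae and 30561 in D. simulans. They summed to 245 to 4239 in the other species. The antennal identity genes summed to 9232 and 21697 in D. ananassae and D. simulans, but sums of different genes are not compared. These columns also had the highest larval shares of the core genes, 14.3% and 15.0%, and the part of fat body RNA in them was not tested.

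The ribosomal protein genes held a large part of all normalized counts in the larval disc and a small part in the adult antenna. Their share of a column was 14.7% to 17.0% at 3L (median 16.1% over 6 species), 7.76% to 10.8% at p8 (median 9.59%), 5.35% to 7.90% at p40 (median 6.59%) and, in AA, 3.28% to 5.17% (median 3.81%). The larval share lay above every later share in every species, and the fall from 3L to AA was 3.05-fold in D. virilis, 3.1-fold in D. sechellia, 4.21-fold in D. simulans, 4.51-fold in D. ananassae, 4.65-fold in D. erecta and 4.97-fold in D. melanogaster. In bulk RNA a lower share can come from fewer cells of a kind or from less of the transcript in each cell, and these cannot be told apart. A share is relative to all other transcripts of the column, and among these the summed level of the odorant binding protein genes Obp83a and lush went from 14.4 to 213 at 3L to 105480 to 315500 in AA. These levels were normalized apart for each stage. The median share without the 10 highest other genes of a column is given below, and it also fell from 3L to AA.

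**Figure D1:**
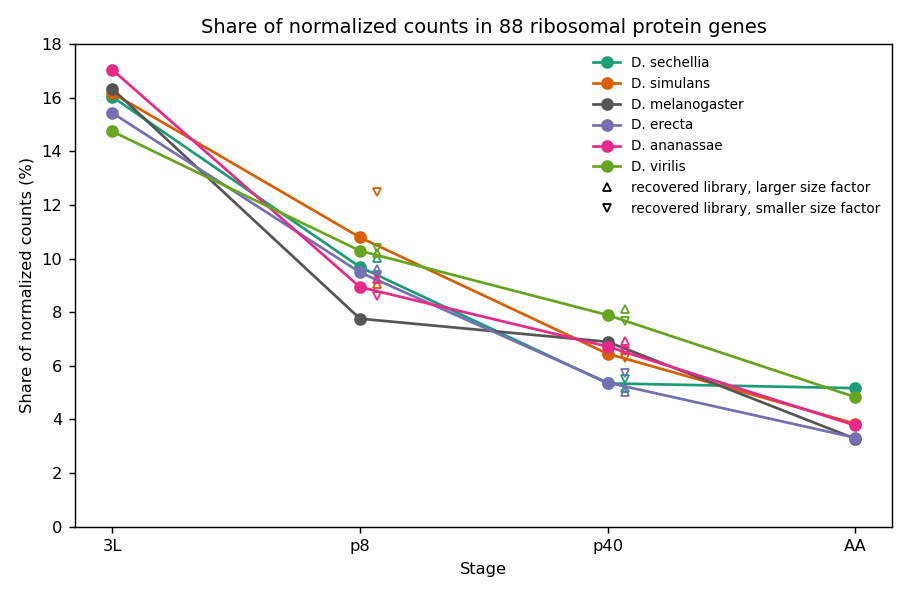
Share of the normalized counts (%) held by the 88 ribosomal protein genes at each stage (x axis), with 1 line for each species and open triangles for the recovered libraries at p8 and p40. The share fell from 14.7% to 17.0% at 3L to 3.28% to 5.17% in AA, and D. sechellia was nearly level from p40 (5.35%) to AA (5.17%).

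The steps differed among species. From 3L to p8 the share fell by 1.43-fold in D. virilis to 2.1-fold in D. melanogaster, and from p8 to p40 by 1.13-fold in D. melanogaster to 1.81-fold in D. sechellia. Over the 4 pairings of its libraries, the p8 share divided by the p40 share was 1.24 to 1.41 for D. ananassae, with D. virilis inside this range, 1.63 to 1.91 for D. erecta, 1.36 to 1.99 for D. simulans and 1.7 to 1.94 for D. sechellia. Every pairing gave a fall, and the pairings of D. sechellia and D. erecta did not overlap those of D. ananassae and D. virilis. The summed level of the 3 measured muscle genes at p40 was 20675 in D. sechellia and 11520 in D. erecta, against 908 to 6807 in the other species, with 3899 in D. ananassae and 908 in D. virilis. At p8 it was 2523 in D. sechellia and 38.3 to 396 in the other species, and its part in the fall was not tested.

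From p40 to AA the share fell by 1.62-fold to 2.1-fold in 5 species and by 1.03-fold in D. sechellia, from 5.35% to 5.17%. The D. sechellia libraries at p40 had shares of 5.17% and 5.53%, so the adult mean lay at the lower of them. The adult D. sechellia column also held eye transcripts, with a summed level of eya, so, gl and ninaE of 9490 against 14.7 to 1106 in the other species, and fat body transcripts (Lsp2, Yp1, Yp2 and Fbp1) of 5497 against 168 to 2072. Their part in the share of ribosomal protein genes was not tested.

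In D. melanogaster the core genes gave another course than all 88, since their share was 12.8%, 4.98%, 5.37% and 2.55% at 3L, p8, p40 and AA. This rise from p8 to p40 stands beside a fall of 1.31-fold to 1.81-fold in the 5 other species, and no library of D. melanogaster gives its spread. In the p8 column of D. melanogaster, RpL41, RpL38 and RpL5 had levels of 71212, 47923 and 60831, and RpL10 and RpL39 had 61034 and 31619, all of them outside the core.

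The libraries of D. simulans at p8 stood apart in these genes. The first library had a share of 9.07% and the second 12.5%, and the median core gene was lower in the first by 0.47 on the log2 scale, against a median over all genes that was 0.037 higher. In the 9 other pairs of libraries at p8 and p40 the median core gene differed by 0.0196 to 0.221 in size. The acidic stalk protein RpLP2 had 26254 and 51306 in these D. simulans libraries, while RpL27 had 4801 and 5029.

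Of the 67 core genes, 66 had a lower share in AA than at 3L in all 6 species, beside a background of 43.4% of 4647 genes. The median core gene fell by 2.05 on the log2 scale, and the median of all 4647 genes by 0.46. The exception was RpL24-like, whose yeast counterpart is an assembly factor of the large subunit rather than a part of the finished ribosome. Its share was 204, 94.0, 97.4 and 252 normalized counts per 1000000 of the column at 3L, p8, p40 and AA for D. sechellia, 230, 100.1, 100.6 and 194 for D. simulans, while D. virilis had 186, 77.7, 63.4 and 86.6. Its lowest point was thus at p8 or p40, and in D. sechellia the adult value was the highest of the 4.

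The large and small subunit fell together. The core genes of the small subunit held 5.24% to 6.44% of a column at 3L and 1.02% to 1.70% in AA, and those of the large subunit 7.17% to 8.57% and 1.44% to 2.51%. The ratio of small to large went from a median of 0.74 at 3L (0.70 to 0.79) to 0.67 in AA (0.63 to 0.77). It was lower in AA than at 3L in all 6 species, and the ranges of the stages overlapped.

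Other genes of the translation machinery were described beside them. The ribosomal proteins sta and Rack1, whose names do not begin with RpL or RpS, went from 0.58% to 0.80% of a column at 3L to 0.088% to 0.15% in AA and fell in all 6 species, both of them. Of 17 measured translation factors, 15 had a lower share in AA in all 6 species and 1 a higher share, with a fall of the summed share of 2.32-fold to 4.31-fold. Of 23 measured genes of ribosome biogenesis, such as the nucleolar methyltransferase gene Fib, 22 had a lower share in all 6 species, but their course was earlier. Their summed share had a median of 0.56%, 0.23%, 0.13% and 0.14% at 3L, p8, p40 and AA, so the p40 share divided by the AA share was 0.86 to 1.26 while that of the 88 ribosomal protein genes was 1.03 to 2.1. Of 12 measured genes of growth control, such as the Myc gene dm and the kinase gene Tor, 3 had a lower share in all 6 species and 1 a higher share.

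RpLP0-like and RpL7-like have yeast counterparts that also act in the assembly of the large subunit. RpLP0-like had 81.7, 33.1, 16.5 and 25.8 normalized counts per 1000000 at 3L, p8, p40 and AA for D. sechellia, 106, 35.4, 15.5 and 19.3 for D. simulans, 57.5, 20.0, 12.4 and 21.2 for D. ananassae, while D. virilis had 71.7, 20.3, 4.66 and 8.14. RpL7-like had 100.6, 39.5, 25.6 and 31.5 in D. sechellia, while D. virilis had 137, 58.1, 48.8 and 62.6. The share of RpLP0-like thus lay higher in AA than at p40 in each of the 6 species, and RpL7-like in 4 of 6, with lower adult values in D. simulans and D. melanogaster.

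Relative to the median core gene of the same species, most core genes did not change from 3L to AA in the same direction in all 6 species. The 5 with the largest fall were RpS9 (mean change -0.63 on the log2 scale, from -1.15 in D. sechellia to -0.33 in D. virilis), RpS2 (-0.45), RpL30 (-0.41), RpS27A (-0.31) and RpS19a (-0.29). RpS9 had 2989, 1580, 669 and 454 normalized counts per 1000000 in D. sechellia, while D. virilis had 2509, 1648, 1138 and 683, a fall of 6.59-fold and 3.68-fold. For RpL30 the largest change, -0.70 in D. ananassae, rests on unlike adult libraries with 1414 and 3828. The 5 that rose in all 6 species were RpL24-like (1.38, from 0.45 in D. virilis to 1.87 in D. sechellia), RpL40 (0.33), RpS30 (0.30), RpS25 (0.29) and RpS14a/RpS14b (0.24). For RpS14a/RpS14b the rise was 0.096 in D. erecta and 0.29 in D. ananassae. It rests there on 3L means of unlike libraries, with 23740 and 8570 in D. erecta and 21238 and 8306 in D. ananassae, so its direction is uncertain in these species. RpS27A and RpL40 are both made as fusions with ubiquitin, and they moved in opposite directions relative to the other core genes in all 6 species. These genes were picked for the size of this change, so the values are a description.

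**Figure D2:**
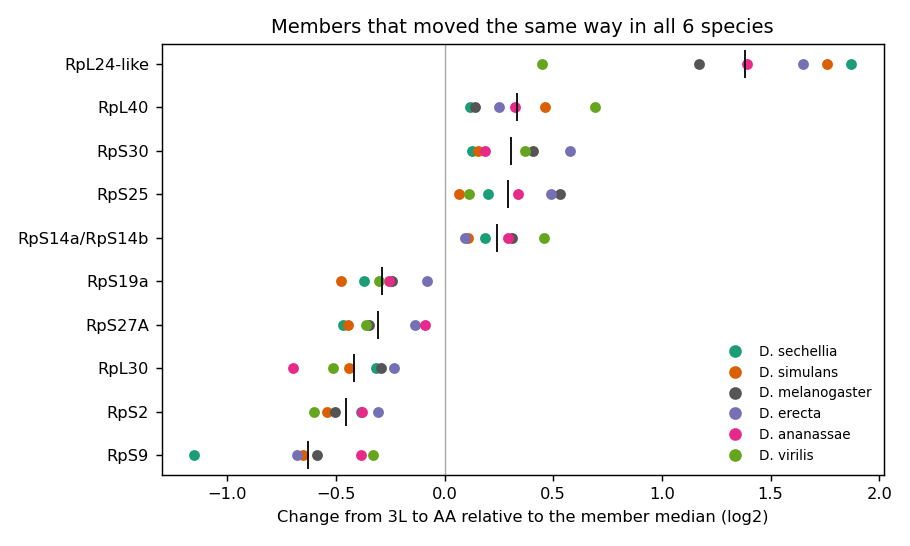
Change from 3L to AA of the level relative to the species' median core gene (log2, x axis) for the 10 genes with the largest change of the same sign in all 6 species (y axis), with 1 point for each species and a bar for the mean. RpL24-like rose by 0.45 to 1.87 and RpS9 fell in every species, by 0.33 in D. virilis and most in D. sechellia.

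The question of how constant the species ratios were was answered by the spread over genes of the log2 ratio of a species pair. If all ribosomal protein genes kept the same ratio between 2 species, this standard deviation would be 0. Over the 15 pairs its median was 0.45, 0.48, 0.57 and 0.58 at 3L, p8, p40 and AA for the 67 core genes, against 0.89, 0.98, 0.97 and 0.95 for all 4647 genes. The core genes had the smaller spread in 15 of 15 pairs at each stage. Pairs share species, and genes of a pair share their libraries, so no p is given.

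A further comparison, chosen after the data had been seen, kept only genes of high level, without matching the levels of the sets. Among genes with a mean of at least 5000 at each stage, the 60 ribosomal protein genes had a spread of 0.37, 0.45, 0.46 and 0.49 at 3L, p8, p40 and AA, and the 79 other genes 1.03, 1.12, 1.18 and 1.10. The smaller spread was thus also seen beside other genes of high counts.

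The smallest spread of the core genes was between D. sechellia and D. erecta at every stage. It was 0.23, 0.23, 0.28 and 0.32 at 3L, p8, p40 and AA. Over all genes the same pair also had the smallest spread, with 0.567, 0.597, 0.589 and 0.735 at 3L, p8, p40 and AA. The low spread of this pair was thus not particular to the ribosomal protein genes. For the core genes, the spread between the libraries of a species had a median of 0.056 at p8 and 0.12 at p40. At p8 it was 0.029 to 0.21, so the ratios between species differed by more than those between libraries at p8. At p40 the libraries of D. erecta gave 1.14, which came from RpS28a/RpS28b with 6867 in the first library and 11.9 in the second, and without D. erecta the range was 0.078 to 0.21.

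**Figure D3:**
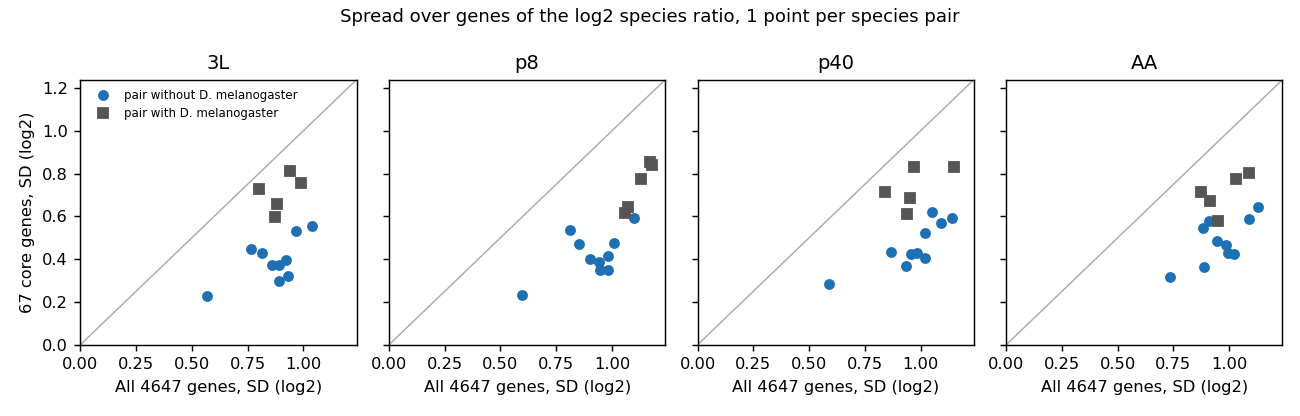
Standard deviation over genes of the log2 ratio of a species pair, for the 67 core genes (y axis) against all 4647 genes (x axis), with 1 point for each of 15 pairs and 1 panel for each stage. All points lie under the line of equality, and the pairs with D. melanogaster (squares) have the higher median at each stage, with some overlap at p40 and in AA.

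D. melanogaster stood apart from the other species. The 5 pairs with it had a median spread of 0.73, 0.78, 0.72 and 0.71 at 3L, p8, p40 and AA, and the 10 pairs without it 0.38, 0.41, 0.43 and 0.48. For all genes, the same medians were 0.88, 1.13, 0.95 and 0.95 with it and 0.89, 0.94, 1.0 and 0.97 without it. At p8, 18 core genes had relative levels that ranged over more than 1 on the log2 scale among the 6 species, and D. melanogaster was the farthest from the median species in 15 of them. Its columns come from libraries outside the 40 and from its own transcriptome, so species, library set and annotation cannot be told apart.

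The median core gene also had its own level in each species. Against the mean of the other species with libraries, it was lower by 0.92 on the log2 scale in D. melanogaster at p8, where 8 of 67 core genes were higher, and higher by 0.39 in D. simulans at p8 and by 0.29 at p40, with 64 of 67 higher at both stages. The 4 neuron and olfactory receptor genes summed to 4984 at p8 in D. melanogaster, against 676 to 1294 in the other species and 5209 at p40 in D. melanogaster itself, and their part in its low level at p8 was not tested. In AA it was higher by 0.30 in D. sechellia and by 0.33 in D. virilis and lower by 0.44 in D. erecta. Over all 4647 genes the same medians lay between -0.085 and 0.16. For D. simulans at p8 the second library, with the share of 12.5%, is part of that mean.

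The pattern of core genes around the species' median core gene was largely kept from stage to stage. Such relative levels leave out the median ratio of a species pair, and that ratio moved. For D. sechellia against D. simulans the median log2 ratio of the core genes was -0.42 at p40 and 0.203 in AA. The relative level of a core gene in a species, set against its mean over species, correlated across stages with r from 0.74 (p8 and AA) to 0.88 (3L and p8) over the 67 core genes and 6 species, and with 0.58 to 0.78 over all 4647 genes. The median change of this value between stages was 0.067 to 0.15 for core genes and 0.20 to 0.31 for all genes. The points share genes, species and libraries, so these are descriptions.

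Among the most constant genes were RpS25 and RpS18, with mean ranges over the 6 species of 0.24 and 0.28 on the log2 scale against a median of 0.59 over core genes. RpS25, a protein of the small subunit head, had a range of 0.066, 0.25, 0.20 and 0.45 at 3L, p8, p40 and AA. At p8 its libraries held 25935 and 24007 for D. virilis, 25913 and 21636 for D. ananassae, 25287 and 25806 for D. erecta, 27552 and 38558 for D. simulans and 24413 and 25461 for D. sechellia. All libraries but the second of D. simulans lay between 21636 and 27552. Over the core genes the range was likewise smallest at 3L and largest in AA, with medians of 0.49, 0.65, 0.63 and 0.68 at 3L, p8, p40 and AA.

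The least constant genes were RpS14a/RpS14b, RpL27, RpL34a/RpL34b, RpL15, RpLP0-like and RpL7A, with mean ranges of 3.74, 2.79, 2.64, 2.48, 2.01 and 1.92. Without D. melanogaster, whose values of joined names are sums, RpL27 ranged most, with 2.79. RpS14a/RpS14b then had 2.48, RpL34a/RpL34b 2.45 and RpLP0-like 1.54. In RpL15 and RpL7A the range came from D. melanogaster, and it was 0.58 and 0.66 over the 5 other species. RpL15, a protein of the large subunit, had 6683, 8485, 4313 and 2317 in D. melanogaster at 3L, p8, p40 and AA, and 41937 to 59314, 28922 to 37868, 19217 to 23784 and 12462 to 18854 in the others. RpL7A had 15827, 8207, 7027 and 4779 in D. melanogaster and 47212 to 71276, 29941 to 45870, 14302 to 30525 and 12194 to 20186 in the others. The D. melanogaster level of both genes was the lowest at every stage.

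**Figure D4:**
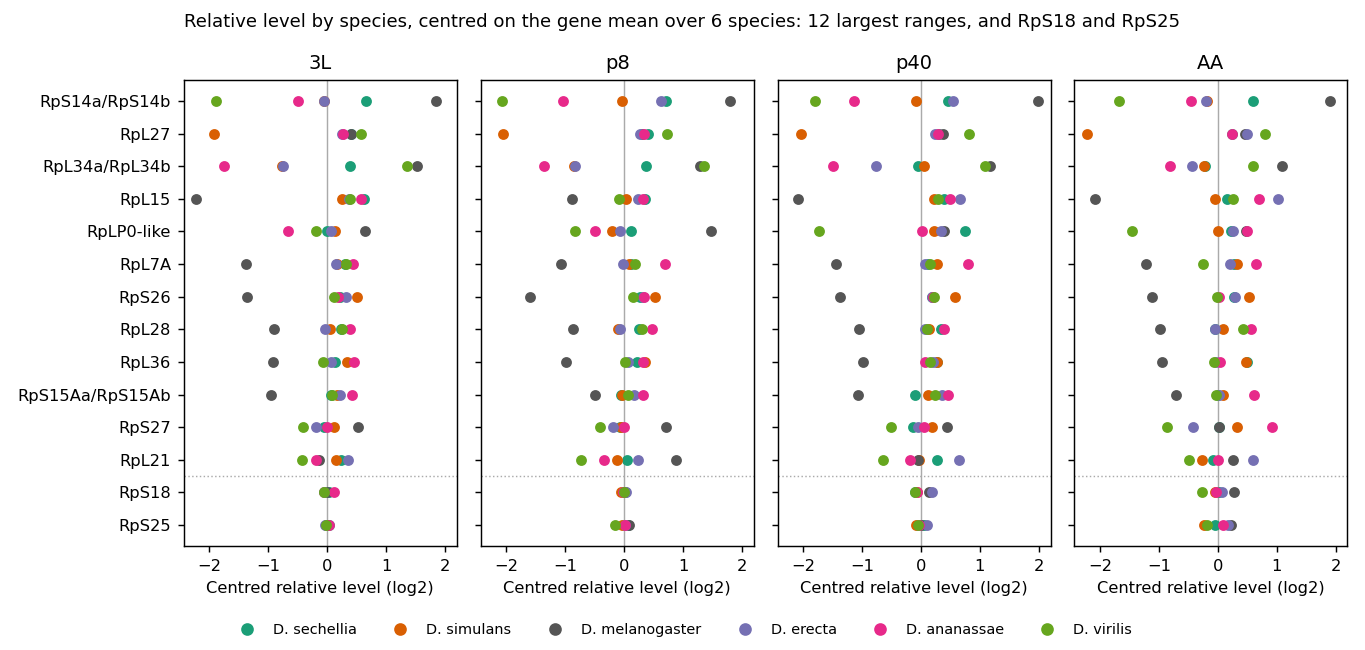
Level of a gene relative to the species' median core gene, centred on the mean of that gene over the 6 species (log2, x axis), for the 12 core genes with the largest range over species and for RpS18 and RpS25, which have small ranges (y axis), 1 panel for each stage and 1 colour for each species. D. simulans is apart in RpL27, D. melanogaster in RpL15, RpL7A, RpS26, RpL28 and RpL36, and all species lie close together in RpS25 at 3L.

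RpL27, a protein of the large subunit, was low in D. simulans at every stage. Its level there was 7334, 4915, 2475 and 1271 at 3L, p8, p40 and AA, against 27306 to 35706, 10515 to 27820, 8237 to 17475 and 5788 to 12559 in the other species. At p40 the libraries held 19049 and 15900 for D. virilis, 10898 and 10989 for D. ananassae, 7795 and 8680 for D. erecta, 9367 and 9908 for D. sechellia, while D. simulans had 2229 and 2722. The D. simulans libraries lay below all others without overlap. By limma, D. sechellia was higher than D. simulans by 1.95 ± 0.11 (SE) on the log2 scale at p8 (adjusted p = 1.82e-05), by 1.97 ± 0.15 at p40 (adjusted p = 0.000108) and by 2.64 ± 0.15 in AA (adjusted p = 2.42e-05).

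Joined names need care, because in D. melanogaster their genes are listed apart and were summed here, while the other species have a single joined value. RpS14a/RpS14b, small subunit genes that lie side by side in D. melanogaster, had 17366 and 17452 in the D. sechellia libraries at p8, 3031 and 2956 for D. virilis, 5405 and 4892 for D. ananassae, 17335 and 17392 for D. erecta and 11806 and 17620 for D. simulans. The libraries of D. ananassae and D. virilis lay below those of the other species. D. sechellia was higher than D. virilis by 2.54 ± 0.18 at p8 (adjusted p = 6.7e-05), by 1.90 ± 0.15 at p40 (adjusted p = 0.000111) and by 2.18 ± 0.12 in AA (adjusted p = 2.03e-05). At 3L the libraries of D. erecta held 23740 and 8570 of it, and those of D. ananassae 21238 and 8306, a spread that p8 and p40 did not have.

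RpL34a/RpL34b, of the large subunit, was highest among the species with libraries in D. virilis and lowest in D. ananassae. At p8 it had 2421 and 2099 for D. ananassae, 3552 and 3414 for D. erecta, 3974 and 5242 for D. simulans, 7592 and 7748 for D. sechellia, while D. virilis had 18165 and 16985. D. ananassae was lower than D. virilis by 2.96 ± 0.15 at p8 (adjusted p = 1.3e-05), by 2.72 ± 0.46 at p40 (adjusted p = 0.00238) and by 1.94 ± 0.45 in AA (adjusted p = 0.00695). The standard errors were larger at p40 and in AA, where the D. simulans libraries held 8399 and 2779 at p40 and 5585 and 1911 in AA.

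The stalk proteins RpLP0, RpLP1 and RpLP2 form the lateral arm of the large subunit that recruits translation factors. RpLP2 had its highest mean in D. ananassae at every stage, with 71131, 41225, 24434 and 19002 at 3L, p8, p40 and AA against 30188 to 51045, 15373 to 38780, 9889 to 16720 and 5772 to 9819 in the other species. At p8 the second D. simulans library, with 51306, lay above both of D. ananassae (45436 and 37014), and no pair was called. At p40 the RpLP2 libraries held 22319 and 26549 in D. ananassae and 9308 to 17066 in the 4 others, without overlap. It was higher in D. ananassae than in D. erecta by 1.30 ± 0.14 at p40 (adjusted p = 0.000379) and by 1.72 ± 0.14 in AA (adjusted p = 7.06e-05). RpLP1 had 10744 to 16496 at p40 in the species with libraries and RpLP0 13160 to 21740, and neither was called at a log2 difference of at least 1 at p8 or p40.

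Across all genes tested, a gene was called when limma, fitted to log2(value + 1) with Benjamini-Hochberg adjustment, gave an adjusted p under 0.05 and a log2 difference of at least 1 in any of the 10 pairs of the 5 species with libraries. At p8, 5 of 69 ribosomal protein genes tested were called, beside 69.4% of all 7526 genes. At p40, 12 of 70 were called, beside 73.7% of 7909 genes. In AA, 18 of 30 were called beside 74.9% of 7400 genes, and at 3L 1 of 4 beside 65.1% of 6911. The share called was lower than the background at each stage, with most of the distance at p8 and p40.

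**Figure D5:**
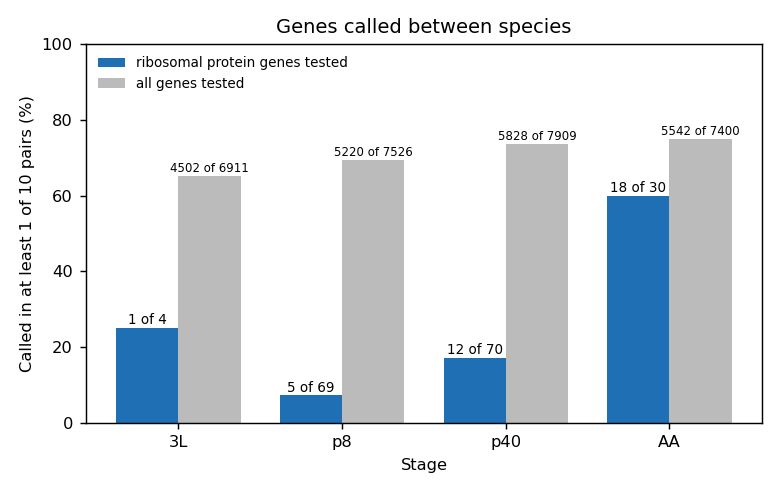
Percent of genes called in at least 1 of 10 species pairs (limma, adjusted p under 0.05 and a log2 difference of at least 1) among the ribosomal protein genes tested (blue) and all genes tested (grey) at each stage, with the counts above the bars. At p8 5 of 69 and at p40 12 of 70 ribosomal protein genes were called, against 69.4% and 73.7% of all genes.

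Among genes with a mean of at least 5000, the background was 59.7% at p8, 72.0% at p40 and 67.9% in AA, and 4 of 65, 8 of 64 and 12 of 23 ribosomal protein genes were called. Without the size limit, 53 of 69 were called at p8 (background 94.7%), 67 of 70 at p40 (94.4%), 29 of 30 in AA (97.2%) and 4 of 4 at 3L (96.0%). Small differences between species thus passed the test in most ribosomal protein genes. The first library of D. simulans at p8 bore on the count there, which rose from 5 to 18 when that library was left out. Of the named lists, with the size limit, 6 of 18 translation factors and 8 of 25 biogenesis genes were called at p8 (background 69.4%). The counts were 11 of 18 and 11 of 25 at p40 (73.7%), 8 of 15 and 16 of 23 in AA (74.9%) and 3 of 7 and 6 of 18 at 3L (65.1%).

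The genes called at every stage at which they could be tested were RpS5b (4 stages), RpL27, RpL34a/RpL34b and RpS14a/RpS14b (p8, p40 and AA), RpL10 (p8 and p40) and RpL39 (p40 only). The calls of RpL10 rest on D. virilis libraries with 1.69 to 7.16. Those of RpL39 rest on D. ananassae libraries with 1.29 and 2.85. At p40 the others called were RpL11, RpL18, RpL7A, RpLP0-like, RpLP2 and RpS9. RpL11 and RpL18 were higher in D. virilis than in D. erecta, by 1.16 ± 0.13 (adjusted p = 4e-04) and 1.11 ± 0.13 (adjusted p = 0.000427). The calls of RpL10, RpL11, RpL18, RpLP0-like and RpS5b at p40 were all in pairs with D. virilis.

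In AA, 10 of the 30 genes tested were called higher in D. virilis than in D. erecta, beside 15.9% of all genes. Among these were RpL9, RpL13, RpL18, RpL27, RpL29, RpL34a/RpL34b, RpS5b, RpS9 and RpS28a/RpS28b, and the median core gene of the column was itself lowest in D. erecta and highest in D. virilis in AA. Differences among them were 1.58 ± 0.15 (adjusted p = 0.000152) for RpS28a/RpS28b, with 10833 and 14392 in the D. virilis libraries and 4140 and 4192 in those of D. erecta, and 1.45 ± 0.13 (adjusted p = 0.000116) for RpS9, with 10603 and 12900 against 4441 and 4112. The adult D. virilis libraries themselves differed, with a median core gene lower in the first by 0.32 on the log2 scale over 53 resolved genes. RpS27 was higher in D. ananassae than in D. erecta by 1.56 ± 0.14 (adjusted p = 0.000117). RpS20, RpL24-like, RpL30 and RpL7-like were called in other pairs, RpL30 in D. ananassae against D. virilis with 1414 and 3828 in the D. ananassae libraries.

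RpS5b, a paralog of RpS5a known from the germ line of D. melanogaster, was high in D. virilis pupae and adults. Its libraries in D. virilis held 76.9 and 68.0 at 3L, 130 and 107 at p8, 511 and 471 at p40 and, in AA, 381 and 413. In the 4 other species with libraries it was at 7.30 to 63.0 at 3L, 9.96 to 52.1 at p8, 0 to 19.7 at p40 and, in AA, 0 to 30.5, so D. virilis lay above all others at each stage. D. sechellia was lower than D. virilis by 1.17 ± 0.24 at p8 (adjusted p = 0.00558), by 5.11 ± 1.05 at p40 (adjusted p = 0.00491) and by 3.83 ± 0.47 in AA (adjusted p = 0.000542). RpS5a itself had 36201, 27559, 16378 and 11205 in D. virilis and was listed at 0 in D. simulans at all 4 stages. The germ line markers vas, nos, bam and aub summed to 120, 242, 93.4 and 118 in D. virilis at 3L, p8, p40 and AA, and to 78.7 to 430, 59.1 to 121, 25.1 to 92.4 and 31.1 to 239 in the other species, and their part in RpS5b was not tested.

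Other paralogs were low or restricted to some species. RpS10a was highest in D. ananassae, with 1089 and 951 in its libraries at 3L, 643 and 592 at p8, 455 and 479 at p40 and 305 and 300 in AA. D. erecta followed with 102, 54.8, 43.7 and 44.9, the other species were at 0 to 9.14, and RpS10b had 5734 to 32608 in the 6 species. RpS19b, known from germ cells, was at 121, 112, 58.7 and 62.7 in D. sechellia, while D. erecta had 230, 179, 68.7 and 50.6 and D. virilis was at 0. RpL22-like, known from the testis, reached 74.1 in D. sechellia at 3L and lay at 0 to 5.34 in AA. RpL37b was at 0 to 24.0 and RpL10Aa at 0 except at p40, where it had up to 28.5, in D. sechellia. None of these passed the filter for the test, because each was at 0 in some species.

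Many genes were listed at 0 in some of the species. Of the 88 genes, 13 were at 0 at all 4 stages in D. simulans, 8 in D. virilis, 4 in D. ananassae, 3 in D. erecta, 2 in D. sechellia and 1 in D. melanogaster. The tables hold no missing values, so a listed 0 can stand for an ortholog that was not joined or for a transcript without reads. In D. simulans the zeros included RpL17, RpL22, RpL36A, RpL37a, RpL5, RpL6, RpS3A and RpS5a, which together held 1.42% to 2.29% of the column at 3L, 0.94% to 1.38% at p8, 0.72% to 0.86% at p40 and 0.44% to 0.78% in AA in the 5 other species.

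RpL5, which carries the 5S RNA into the large subunit, was at 0 in D. simulans and D. virilis and at 38586 to 66026 at p8 in the other 4 species. RpL23A was at 0 in D. erecta and D. ananassae and at 11140 to 48157 at p8 in the others. RpL38 had values only in D. melanogaster and D. virilis, RpL41 only in D. melanogaster, and RpS29 was at 0 only in D. virilis. RpL39 was at 0 in D. ananassae but at p40, where its libraries had 1.29 and 2.85. RpL10, a large subunit protein needed for subunit joining, was at 2.44 and 1.69 in the D. virilis libraries at p8 and at 32286 to 51277 in the others, and passed the test against each of them (adjusted p = 2.48e-07 to 7.25e-07). These values bear on the shares of the 88 genes, and the core genes leave such genes out.

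The last comparison asked whether a species ratio changed between p8 and p40. A gene counted when, in any of the 10 pairs, its 4 library ratios at p8 and its 4 at p40 did not overlap and their means differed by at least 1 on the log2 scale. This held for 4 of 69 ribosomal protein genes, beside a background of 58.7% of 7331 genes. The 4 genes were RpL10, RpLP0-like, RpS28a/RpS28b and RpS5b. RpLP0-like had 382 and 325 in the D. virilis libraries at p8 and 51.0 and 78.5 at p40, while D. sechellia had 607 and 563 at p8 and 290 and 271 at p40. The count for RpS28a/RpS28b rests on the p40 libraries of D. erecta with 6867 and 11.9, and that for RpL10 on values of 1.69 to 7.16 in D. virilis.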

How the data were processed

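RNA of pooled antennal discs or antennae was made into stranded mRNA libraries and sequenced as 50 bp pairs. Per the methods of the study and the submitters' processing notes, the authors called bases with CASAVA 1.8, mapped reads with BWA 0.7.8 to each species' FlyBase transcriptome, counted reads per gene with a script of their own, joined species by FlyBase orthologs, kept the highest expressed transcript of several, and normalized each stage apart with DESeq2. The deposited signal is the authors' mean normalized count of a species and stage, in 24 columns, with 0 columns for single libraries and no read counts. Stages are compared by shares of a column, by levels relative to the median core gene, or by species ratios. Levels given for several stages, such as the sums of marker genes, were normalized apart and are not on a common scale.

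The libraries were recovered from the means, a step chosen after the data had been seen. In a simulation, every resolved value was right. The read depth of libraries is known at p8 and p40 alone, and at p40 the D. virilis depth leaves out 1 unresolved gene, for which the authors' mean stands in the shares. At 3L and AA the depth is unknown. Nothing beyond the statement of biological replicates says that the 2 libraries came from separate cultures, so p-values measure the spread between libraries, which may be technical.

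Tests used limma 3.58.1 in R 4.3.3 on log2(value + 1), within a stage, with a term for species, over genes above 0 in all 5 species with a mean of at least 10 and all libraries resolved. Other values came from Python 3.11.15 with numpy 2.4.6, pandas 2.3.3 and matplotlib 3.10.9. A core gene had more than 50 in all species and stages. Named were stalk and ubiquitin fusion genes, paralogs, the 6 largest and 4 smallest species ranges, the 5 largest rises and falls from 3L to AA, genes called at every stage tested and genes listed at 0. Other genes named for p40, AA or D. melanogaster were chosen after their values were seen. A few genes that these rules name are not reported here. Members, lists and tests were chosen with earlier results of these data known. Alternatives were other denominators, filters and pseudocounts, rescaled libraries, limma with a trend, and leaving out species or libraries. No gene sequences or lengths were used.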

Additional observations from a re-analysis of the deposited data

Results flagged for a closer look

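The relative level of a gene, its log2 level minus that of the median core gene in the same library, was followed from p8 to p40 in the 5 species with libraries. Of 28 named core genes, 14 rose in every pairing of libraries of a species and fell in every pairing of another, as did 40 of the 67 core genes (59.7%) and 832 of all 4647 genes (17.9%). With the median of all 4647 genes as the reference in place of the median core gene, the counts were 1 of 28, 1 of 67 and 1720 of 4647 (37.0%), so the count among core genes depends on the reference. Relative to their own median, some core genes must rise and others fall in every species, so the values that follow are a description. The difference between species was not tested for single genes. The largest was in RpL34a/RpL34b, at 1.04 on the log2 scale between D. simulans, which rose by 0.10 to 1.88 over its pairings, and D. sechellia, which fell by 0.047, and the D. simulans libraries at p40 held 8399 and 2779. The stalk gene RpLP0 rose by 0.22 in D. erecta and fell by 0.31 in D. simulans, a difference of 0.53, and RpLP1 differed by 0.366 between D. erecta and D. virilis. RpS9 rose by 0.062 in D. ananassae and fell by 0.44 in D. erecta, a difference of 0.499. RpL30 differed by 0.435 between D. erecta and D. ananassae, RpS10b by 0.428 between D. ananassae and D. simulans, and RpS27A by 0.339 between D. erecta and D. ananassae. The other differences were 0.261 for RpS18 (D. erecta and D. virilis), 0.235 for RpL40 (D. ananassae and D. sechellia), 0.224 for RpS15Aa/RpS15Ab and 0.183 for RpS19a (both D. erecta and D. sechellia), 0.212 for RpL7 (D. simulans and D. ananassae), 0.154 for RpL27 (D. virilis and D. sechellia) and 0.144 for RpL7A (D. ananassae and D. virilis).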

How the results depend on the processing

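Median shares over species kept their order over stages under each alternative, although the core share of D. melanogaster rose from p8 to p40. The medians at 3L, p8, p40 and AA were 17.78%, 11.36%, 7.362% and 4.855% over genes above 0 in all 6 species, 17.1%, 11.13%, 7.267% and 4.176% without the 10 highest other genes, 13.01%, 7.848%, 5.492% and 3.361% for the core genes, and 16.41%, 10.01%, 6.765% and 3.957% with repeated rows counted once, an alternative added after seeing the data. At p40 it was 6.452% without D. melanogaster and 6.452% without D. virilis. Leaving out 1 library moved the median share over 9.276% to 9.755% at p8 and 6.497% to 6.683% at p40, with the lowest p8 value without the second D. simulans library.

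The spread of species ratios at 3L, p8, p40 and AA was 0.2652, 0.3021, 0.3467 and 0.3857 from interquartile ranges, 0.6504, 0.6946, 0.6755 and 0.6742 for genes above 0, and 0.3835, 0.4069, 0.431 and 0.4769 without D. melanogaster and, the same values, without D. virilis. Above 200 it was 0.4506, 0.4781, 0.4912 and 0.5452, and with a pseudocount of 10 it was 0.4747 at p8 and 0.573 in AA. Added after seeing the data, it was 0.3407, 0.3589, 0.4767 and 0.5014 without the 4 joined names and 0.3723, 0.4528, 0.4612 and 0.4882 for genes with a mean of at least 5000. Ribosomal protein genes had the smaller spread than all genes under each of these. Leaving out 1 library gave 0.4755 to 0.477 at p8 and 0.5532 to 0.7163 at p40, the highest without the first D. erecta library.

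Counts of called genes fell to 3 at p8 with a filter above 50 and to 3 without the joined names. At 3L the limma count was 0 of 3 with a filter above 50, where 3 had an adjusted p under 0.05 with smaller differences, and no gene could be tested at a mean of at least 5000, which gives 0. Leaving out 1 library gave 1 at 3L, 5 to 18 at p8 (18 without the first D. simulans library), 12 to 18 at p40 and 14 to 20 in AA. With libraries rescaled the counts were 1, 6, 17 and 16 at 3L, p8, p40 and AA. The count of genes whose ratios did not overlap between p8 and p40 was 2 of 67 with a filter above 50, beside 44.9% of all genes, and 6 of 69 with libraries rescaled, beside 60.0%. The named genes kept their direction with another pseudocount, while rescaling a species cancels in their relative levels and tests nothing. No paired analysis was possible because the recovered libraries carry no replicate numbers.

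The digits of the means limit the report at 3L, where 3 to 41 of the 67 core genes were resolved into libraries in a species, and less in AA, where 33 to 65 were resolved, with 30 ribosomal protein genes tested over all 5 species. The spread of D. melanogaster is unknown at all stages.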

Other observations

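The low D. melanogaster levels of RpL15 and RpL7A were shared by RpS26, RpL28 and RpL36, genes picked here after their values were seen. The range of RpS26 over the 6 species was 1.87, 2.13, 1.95 and 1.65 on the log2 scale at 3L, p8, p40 and AA, and its mean over stages was 1.90 with D. melanogaster and 0.43 over the 5 other species. For RpL28 these means were 1.40 and 0.48. D. melanogaster was the lowest species at each of the 4 stages in both genes.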
